A study of Mus musculus with 38 samples.

Results

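The keratin genes were taken as the protein-coding genes whose symbol is Krt followed by a number in the GENCODE annotation vM1 of the mouse genome NCBIM37/mm9. The keratin-associated protein genes (Krtap) and Krtdap were left out. Of 22367 protein-coding genes on chromosomes 1 to 19, X and Y, 51 met this rule. The type I cluster on chromosome 11 (chr11:99094075-100131185) held 27 of them and the type II cluster on chromosome 15 (chr15:101177875-101862457) held 24. Krt72-ps was kept because the annotation lists it as protein-coding, although its symbol is that of a pseudogene. The genes were short, with a median length of 6.99 kb against 15.4 kb over all protein-coding genes, and the longest, Krt80, spanned 22.7 kb.

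Keratins are the intermediate filament proteins of epithelia. A type I keratin pairs with a type II keratin, and each epithelial state is known by its pair, such as Krt14 with Krt5 in the basal layer of the epidermis, Krt10 with Krt1 above it and Krt18 with Krt8 in simple epithelia. SATB1 is a chromatin protein of thymocytes, basal epidermal cells and some cortical neurons that binds base-unpairing regions (BURs), AT-rich stretches in which 1 strand holds long runs without G. CTCF is a zinc finger protein that binds a defined motif and marks the borders of chromatin loops.

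Peak positions were analysed in 11 lists, all from C57BL/6 mice. The BUR reference map came from recombinant SATB1 bound to purified thymus DNA in vitro (1 list). Urea ChIP-seq purifies the crosslinked chromatin by centrifugation through urea before immunoprecipitation, and it gave SATB1 lists from thymocytes, brain and skin (2 replicates each) and CTCF lists from thymocytes and skin (1 each). Standard ChIP-seq of SATB1 in thymocytes gave 2 lists. All ChIP samples were SATB1 wild-type. By the study's methods, brain was frontal cortex and skin was primary epidermal keratinocytes. The labels gave P13 for thymus and skin and 5 and 6 weeks for brain replicates 1 and 2. The titles of the thymocyte CTCF sample and of standard replicate 1 gave 6 weeks instead, the protocol text gave P5 for skin and P13 for brain, and the study's methods gave other ages again, so age cannot be told apart from cell type. Antibody 1583D was used for every SATB1 sample except standard replicate 1 (ab109122), and the standard replicates also differed in sonication (15 s and 150 s). Urea replicates of a cell type shared an experiment number and differed in antibody volume (thymocytes, 4 and 2 µl), PCR cycles (brain, 10 and 12) or sonication (skin, 55 and 60 s), so their spread may be technical. The lists held 238380 BURs, 38882 and 45049 thymocyte, 109154 and 117963 brain and 10846 and 11210 skin SATB1 urea peaks, 27147 and 48175 standard SATB1 peaks, and 20323 and 31509 CTCF peaks in thymocytes and skin. They held no read counts, so the depth was unknown, and no expression values, so the cell types could not be checked against markers.

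The sequences below lie at named SATB1 urea peaks of both clusters. The Krt6b site, 27.7 kb from the Krt6b start, lies outside the 20 kb flanks used for the counts below. Each sequence shows 200 bp of the plus strand of NCBIM37/mm9 around the summit of the BUR, or around the mean skin summit at the Krt75 and Krt18 sites, which have no BUR. The capitals mark the longest run that lacks G or lacks C, the latter being a G-free run of the other strand.
Krt14 upstream, chr11:100077783-100077982: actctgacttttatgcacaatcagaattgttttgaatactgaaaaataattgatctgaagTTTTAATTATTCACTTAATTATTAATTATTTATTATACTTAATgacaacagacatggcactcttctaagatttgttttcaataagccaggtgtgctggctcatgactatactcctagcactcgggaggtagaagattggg
Krt222 upstream, chr11:99109478-99109677: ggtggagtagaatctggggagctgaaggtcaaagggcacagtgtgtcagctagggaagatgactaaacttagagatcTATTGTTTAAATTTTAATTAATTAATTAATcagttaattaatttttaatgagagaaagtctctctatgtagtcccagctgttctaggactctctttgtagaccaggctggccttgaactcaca
Between Krt28 and Krt10, chr11:99240603-99240802: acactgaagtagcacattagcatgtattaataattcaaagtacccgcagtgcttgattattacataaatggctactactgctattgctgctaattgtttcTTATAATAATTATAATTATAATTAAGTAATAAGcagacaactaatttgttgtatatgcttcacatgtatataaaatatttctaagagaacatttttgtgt
Krt19 start, chr11:100010113-100010312: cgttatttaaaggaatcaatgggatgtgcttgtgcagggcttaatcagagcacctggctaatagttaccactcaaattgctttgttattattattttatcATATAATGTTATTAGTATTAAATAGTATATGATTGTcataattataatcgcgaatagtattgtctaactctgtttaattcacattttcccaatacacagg
Krt75 upstream, chr15:101419958-101420157: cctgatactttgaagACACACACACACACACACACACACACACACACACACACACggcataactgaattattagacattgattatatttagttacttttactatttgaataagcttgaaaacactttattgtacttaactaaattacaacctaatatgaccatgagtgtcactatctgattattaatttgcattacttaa
Krt6b downstream, chr15:101482847-101483046: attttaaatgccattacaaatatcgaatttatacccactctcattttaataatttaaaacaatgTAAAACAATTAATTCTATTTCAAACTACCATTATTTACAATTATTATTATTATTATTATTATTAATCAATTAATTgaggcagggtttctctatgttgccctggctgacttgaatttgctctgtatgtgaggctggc
Krt18 downstream, chr15:101865647-101865846: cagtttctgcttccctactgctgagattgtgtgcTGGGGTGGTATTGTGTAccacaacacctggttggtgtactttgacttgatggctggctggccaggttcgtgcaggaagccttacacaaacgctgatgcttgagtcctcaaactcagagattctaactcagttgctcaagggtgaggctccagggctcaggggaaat

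The longest such run was 43 bases at the Krt14 site, 30 at the Krt222 site, 33 between Krt28 and Krt10, 36 at the Krt19 start and 75 at the Krt6b site. It was 40 bases at the Krt75 site, where the run was a CA repeat, and 17 at the Krt18 site. The AT content of the 200 bp was 67.5%, 61.5%, 73.0%, 69.5% and 73.0% at the Krt14, Krt222, Krt28, Krt19 and Krt6b sites, 69.0% at the Krt75 site and 48.5% at the Krt18 site. The Krt18 site, bound in skin alone, was the least AT-rich of the 7 and had the shortest run. All others but the Krt75 site were centred on the summit of a BUR, so the 7 were not chosen alike.

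In skin, SATB1 peaks at the keratin genes were about as dense as over the genome, and in thymocytes and brain they were sparser. Within the gene bodies and 20 kb on each side, here called windows, both skin lists held the same 5 sites, both thymocyte lists held 11 peaks, and the brain lists held 24 and 25. Per Mb this is 3.84 in both skin lists (4.30 and 4.15 over the genome), 8.44 in both thymocyte lists (17.6 and 15.2) and 18.4 and 19.2 in brain (46.1 and 42.7). The windows of neighbouring genes overlap, so the 51 windows form 7 stretches of 1.30 Mb in all and a peak can belong to several genes. The order of skin below thymocytes below brain had p = 0.0111 by the Jonckheere-Terpstra statistic in a one-sided exact permutation test, the smallest p that 90 arrangements allow. This is also the order of the list sizes over the whole genome, which was known beforehand, so the test is no independent support of the order. With every SATB1 list cut to its 10846 strongest peaks by −log10 q, the order turned, with 5 and 5 peaks in skin, 3 and 3 in thymocytes and 1 and 1 in brain.

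As a share of their own list, the skin peaks in the windows were the most frequent. They made up 4.54 ± 0.106 of 10000 peaks in skin (SD, n = 2), 2.64 ± 0.274 in thymocytes and 2.16 ± 0.181 in brain. The groups did not overlap, and the exact two-sided permutation test of the variance between cell types gave p = 0.0667, the smallest it can give. The difference between skin and brain of 2.37 per 10000 peaks rests on 5 skin sites outside the genes. In the gene bodies alone, skin had no peak, and its share was below that of brain.

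**Figure D1:**
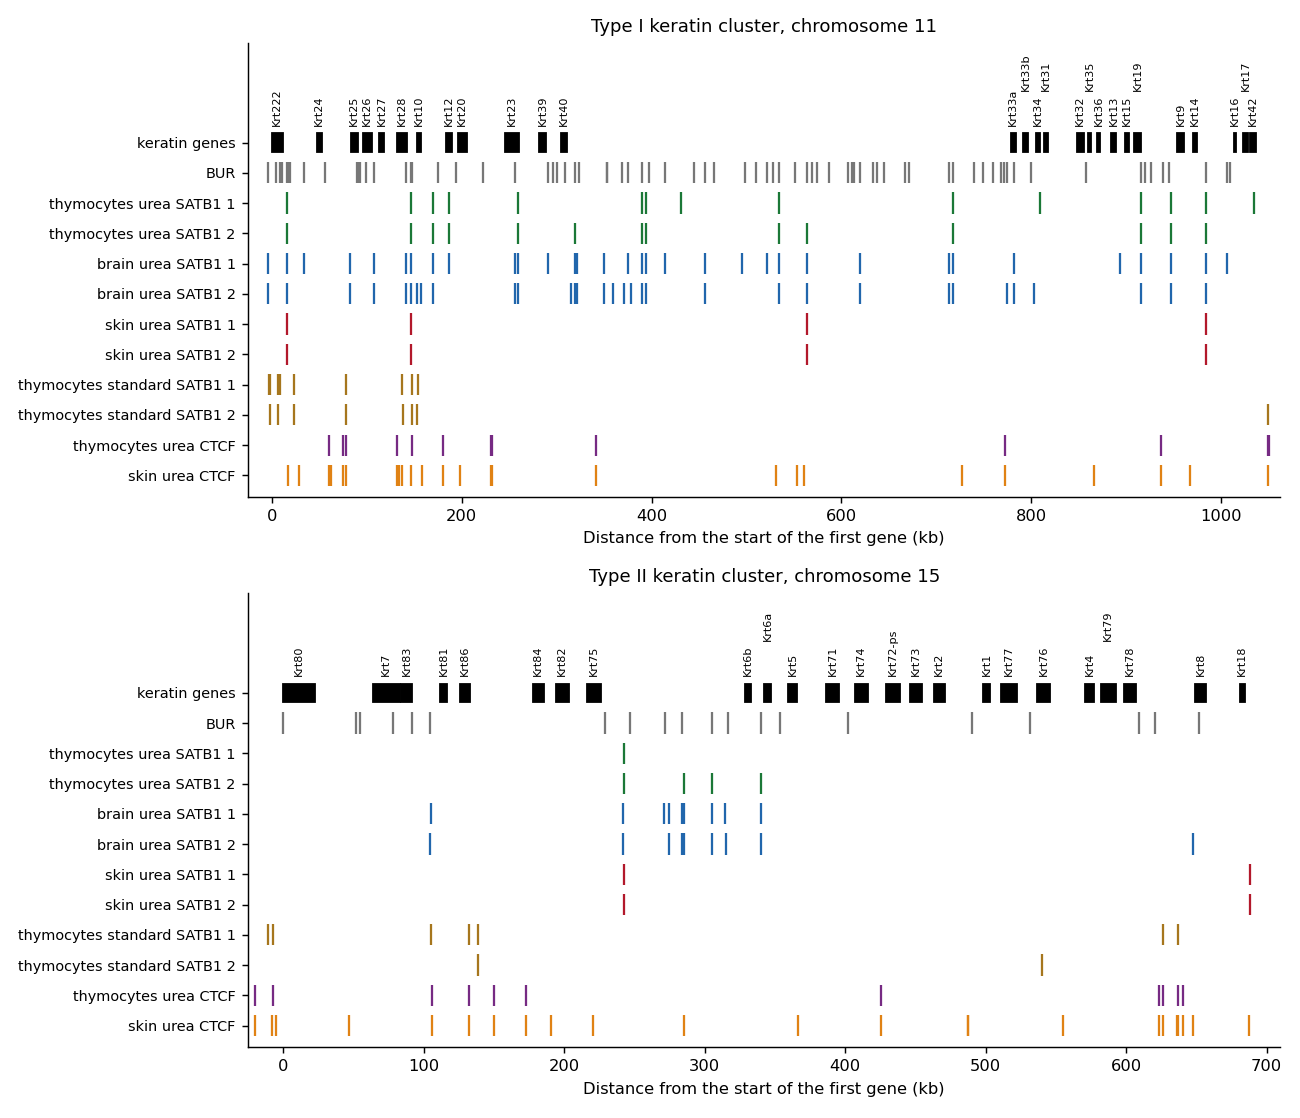
Peaks of the 11 lists (rows) along the type I cluster (top) and the type II cluster (bottom), as ticks at peak midpoints against the distance in kb from the start of the first gene, with keratin genes as black boxes. The 4 skin SATB1 sites in the type I span and the 2 in or beside the type II span stand at the same places in both skin rows, and the type II rows from Krt71 to Krt78 are empty for SATB1 urea.

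Per gene, SATB1 was found at 6 of 51 keratin genes in both skin replicates (11.8%, against 18.2% of all protein-coding genes), at 11 in both thymocyte replicates (21.6%, against 40.4%) and at 21 in both brain replicates (41.2%, against 58.3%). Among the 13376 protein-coding genes no longer than the longest keratin gene, the shares were 11.6%, 28.9% and 46.7%. The skin share of the keratin genes was therefore close to that of genes of like length, and the thymocyte and brain shares were lower. A BUR lay in the window of 42 keratin genes (82.4%, against 86.6% of all genes and 81.2% of short genes). The median number of BURs per window was 2 for keratin genes and 3 for all genes. No skin peak lay in a gene body, where thymocytes had a peak in both replicates at 2 keratin genes and brain at 5.

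The genes fell into a few patterns. Krt222, Krt28, Krt10, Krt14 and Krt75 had a SATB1 urea peak in both replicates of all 3 cell types. Krt12, Krt23, Krt15, Krt19 and Krt9 had 1 in thymocytes and brain, 11 genes in brain alone, Krt20 in thymocytes alone and Krt18 in skin alone, and 28 genes in none. In 19 of these 28, no SATB1 urea list of any replicate held a peak, and 16 of the 19 belong to the type II cluster. These patterns ask for both replicates, and brain replicate 1 also had a peak in the Krt20 window, with a fold enrichment of 5.94. The patterns were not counted over all genes, and the lists differ in size, so no pattern is shown to be particular to keratin genes.

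**Figure D2:**
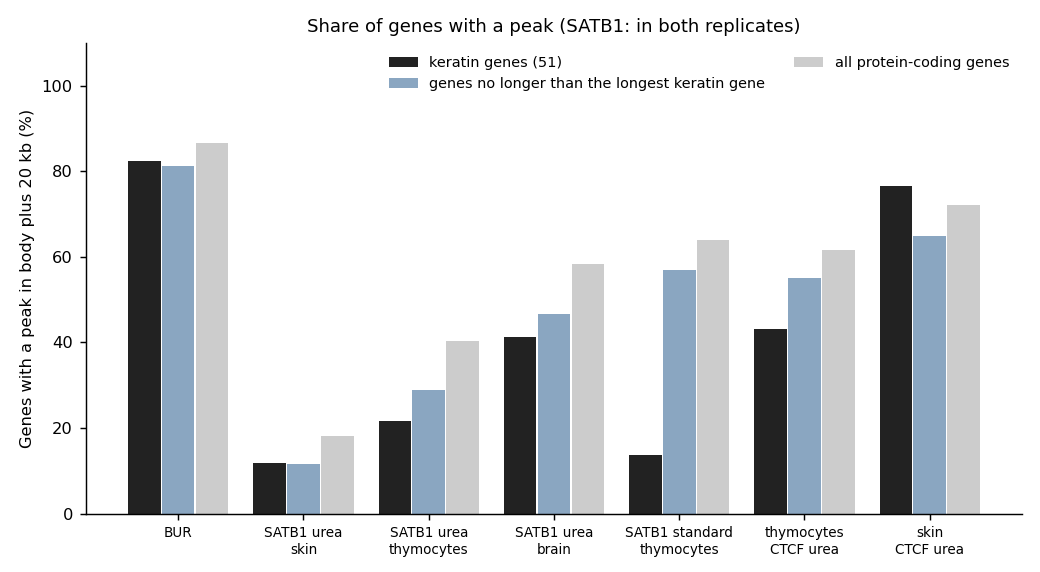
Percent of genes with a peak in the gene body plus 20 kb (vertical axis) for each kind of list (horizontal axis), for the 51 keratin genes, for protein-coding genes no longer than the longest keratin gene, and for all protein-coding genes. SATB1 bars need a peak in both replicates. The keratin bar is furthest below the others for standard SATB1 (13.7% against 64.0%) and above them for skin CTCF (76.5% against 72.1%).

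The clusters differed from each other. In the type I windows, SATB1 urea peaks were about as dense as on chromosome 11 as a whole, with 15.4 and 13.9 per Mb in thymocytes (chromosome 11, 13.8 and 11.9), 30.8 and 30.8 in brain (33.6 and 31.4) and 4.62 and 4.62 in skin (3.64 and 3.41). In the type II windows they were sparse in thymocytes, with 1.53 and 3.06 per Mb (chromosome 15, 19.2 and 16.5), and in brain, with 6.12 and 7.64 (51.2 and 48.2). Skin had 3.06 and 3.06 (4.72 and 4.53), which rests on 2 peaks in each list and is too few to call sparse. BURs were likewise sparse in the type II windows, at 26.0 per Mb against 98.9 on chromosome 15, while the type I windows had 64.7 against 67.9 on chromosome 11. No test was made of this contrast, since each cluster is a single region. In the type II windows alone, the brain lists exceeded the skin lists by 2.5 peaks on average, and the order of the cell types had p = 0.133 (exact one-sided permutation test).

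**Figure D3:**
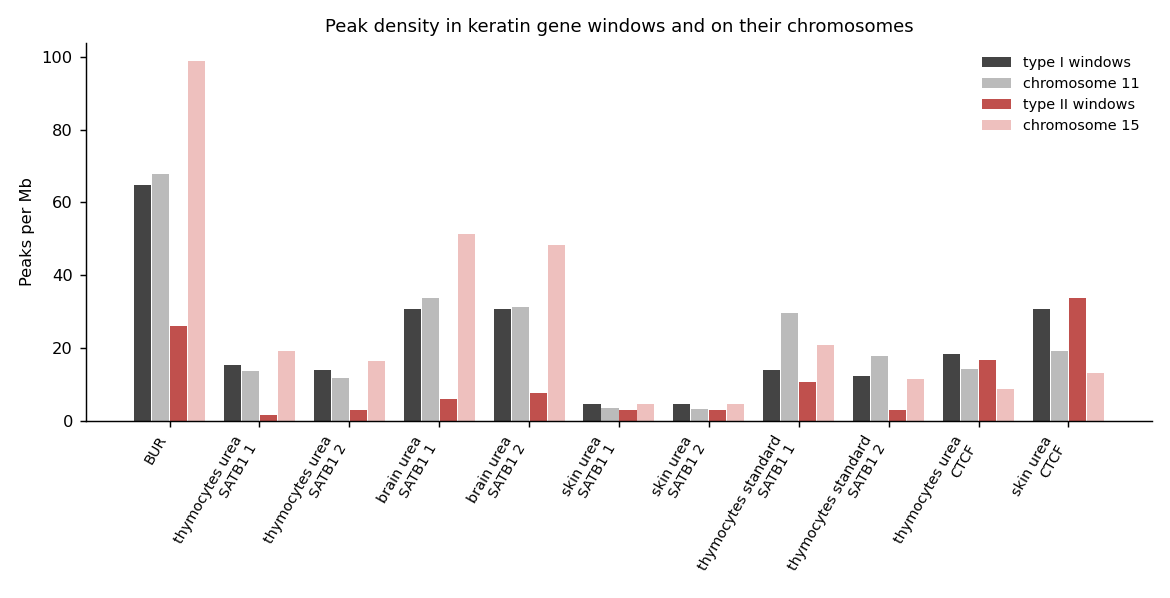
Peaks per Mb (vertical axis) in the windows of the type I and type II keratin genes and on chromosomes 11 and 15 as a whole, for each of the 11 lists (horizontal axis). The type II bars lie far below chromosome 15 for BURs (26.0 against 98.9) and brain SATB1, and above it for CTCF (33.6 against 13.2 per Mb in skin).

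Within the type II cluster, most SATB1 sites lay in the 149.5 kb from Krt75 to Krt5, with 8 and 7 brain peaks, 1 and 4 thymocyte peaks and 1 skin peak in each replicate. Over the 220.3 kb from Krt71 to Krt78, which holds 11 keratin genes among them the suprabasal Krt1 and Krt2, no SATB1 urea list had a peak and only 3 BURs were mapped. Skin CTCF had 4 peaks there and thymocyte CTCF 1. Both stretches were chosen after the map was seen and were not tested. Within the type I cluster, the keratin genes stand at its ends, and the 428 kb between their windows (chr11:99424473-99852508) hold 52 other protein-coding genes, 19 of them Krtap genes. SATB1 urea peaks there numbered 5 and 5 in thymocytes, 13 and 12 in brain and 1 and 1 in skin, and standard SATB1 had none.

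The strongest skin site of either cluster had its centre 9.03 kb upstream of the start of Krt14, the type I keratin of basal cells (chr11:100077615-100078174, intergenic). Its fold enrichment, which is summit signal divided by background as the peak caller estimated it within that sample, was 19.1 and 18.8 in skin, 16.3 and 12.4 in thymocytes and 14.1 and 11.1 in brain. The skin values were above those of the other cell types, although the ratio is not scaled between samples. It stood above 89.1% and 88.9% of the skin peaks, 88.1% and 75.4% of the thymocyte peaks and 85.9% and 75.4% of the brain peaks. The BUR beneath it had a fold enrichment of 19.1 in vitro, above 99.2% of all BURs. The nearest standard SATB1 peak was 65.6 kb from the site, and the nearest skin CTCF peak was 16.1 kb away.

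A site 4.19 kb upstream of Krt222, a keratin-like gene at the edge of the cluster, was lowest in skin (chr11:99109355-99109819, intergenic). Its fold enrichment was 19.5 and 19.8 in thymocytes, 15.9 and 15.6 in brain and 10.5 and 11.7 in skin, over a BUR of 3.82, above 16.2% of all BURs. A site between Krt28, a keratin of the inner root sheath of the hair, and Krt10 had its centre 4.48 kb upstream of the Krt28 start and its edge 5.57 kb past the 3′ end of Krt10 (chr11:99240397-99240995, intergenic). Its fold enrichment was 20.3 and 17.8 in brain, 15.2 and 15.6 in thymocytes and 10.1 and 8.39 in skin, over a BUR of 13.5. The skin CTCF peak here (9.73, chr11:99240836-99241287) overlapped the ends of the SATB1 urea peaks of skin, and those of thymocytes and brain as well. The thymocyte CTCF peak (12.3, chr11:99240938-99241224) was narrower and began past the SATB1 urea peaks of thymocytes. Overlap at this site thus depends on where the peak edges fall. Both standard SATB1 lists had a peak 0.308 and 0.301 kb from the centre of the site.

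In the type II cluster, a site 15.7 kb upstream of Krt75, the companion layer keratin, was present in all 6 SATB1 urea lists without a BUR (chr15:101419879-101420245, intergenic). Its fold enrichment was 8.38 and 8.39 in skin, 8.89 and 7.54 in thymocytes and 7.86 and 10.4 in brain, and the cell types overlapped. The nearest BUR was 4.06 kb from its centre. The site with its edge 3.27 kb past the 3′ end of Krt18 (chr15:101865731-101865965, intergenic) had a fold enrichment of 6.08 and 5.53 in skin and no peak in the other SATB1 urea lists. In skin it was weak, above 28.9% and 22.5% of the peaks. It overlapped a skin CTCF peak of 12.4, above 96.1% of the skin CTCF list, and the nearest thymocyte CTCF peak was 30.2 kb away. The nearest BUR was 35.6 kb away, and the part of CTCF in this peak was not tested.

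Other strong sites were found in brain and thymocytes only, or more weakly in skin. At the start of Krt19, a keratin of simple epithelia, a peak overlapping an exon (chr11:100009942-100010500) had a fold enrichment of 18.4 and 13.9 in brain and 11.6 and 10.4 in thymocytes, and no skin list had a peak there. In the Krtap stretch, a site at chr11:99657180-99657724 had 25.2 and 18.7 in brain and 5.45 and 5.32 in skin, and 20.3 in thymocyte replicate 2 without a peak in replicate 1. A site at chr15:101482686-101483259 lay 27.7 kb downstream of the Krt6b start, outside the windows. It had 21.1 and 8.17 in brain and 22.3 in thymocyte replicate 2, again without a peak in replicate 1. Among the urea lists, those of brain alone had peaks at chr15:101282376-101282882 near Krt81 (11.8 and 11.3), a hair shaft keratin, and at chr15:101461517-101462199 downstream of Krt6b (11.4 and 9.23). The latter lay 48.9 kb from the Krt6b start, also outside the windows, and thymocyte replicate 2 had a peak 1.06 kb from its centre. Standard replicate 1 also had a peak at the Krt81 site, with a fold enrichment of 4.51.

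**Figure D4:**
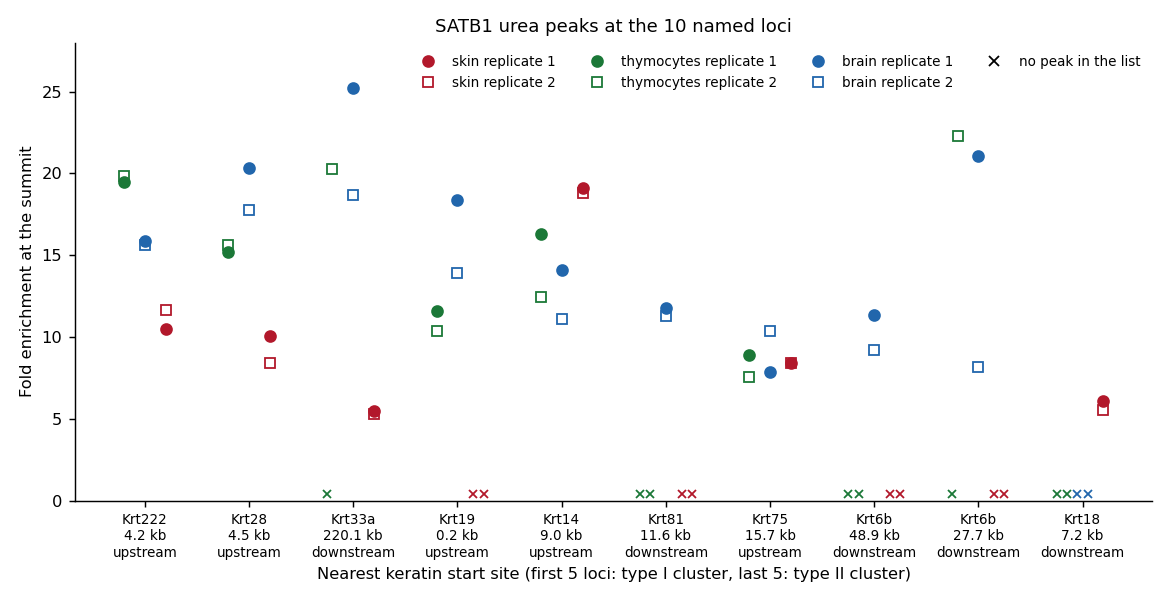
Fold enrichment at the summit (vertical axis) of the SATB1 urea peaks at the 10 sites chosen by rule, ordered along chromosome 11 and then chromosome 15 and named by the nearest keratin start site, with a filled circle for replicate 1, an open square for replicate 2 and a cross where a list has no peak. Skin is highest upstream of Krt14 (19.1 and 18.8) and is the only cell type with a peak downstream of Krt18 (6.08 and 5.53).

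By role, the groups are small, and among all genes the shares with a SATB1 urea peak in both replicates were 18.2% in skin, 40.4% in thymocytes and 58.3% in brain. The basal keratins were all near a SATB1 site in brain and Krt14 was so in skin. Krt5, the type II partner of Krt14, had 2 BURs and 1 peak in each brain list and in thymocyte replicate 2, and none in skin. Krt15, a keratin of basal and bulge cells, had 2 BURs, 1 peak in each thymocyte list and 2 and 1 in brain, and none in skin. Of the suprabasal and volar keratins, Krt10 had 4 BURs, 2 and 2 thymocyte, 3 and 5 brain and 1 and 1 skin peaks, whereas Krt1, its type II partner, and Krt2, of the upper layers, each had 1 BUR and no SATB1 peak of any list. The basal and suprabasal pairs were thus split, with a SATB1 site in skin in the window of the type I gene of each pair and none at the type II gene, although the site of Krt10 lies nearer to the start of Krt28.

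Among the 6 keratins of simple epithelia, 3 had a peak in both thymocyte replicates, 2 in both brain replicates and Krt18 in skin. Krt8 had 1 BUR and a peak in brain replicate 2 alone, and Krt7 had 4 BURs, the most of the type II genes, and no SATB1 peak. The stress keratins, induced in wounded epidermis, had no skin site. Krt6a had 2 BURs, 1 peak in each brain list and 1 in thymocyte replicate 2. Krt16 and Krt17 each had 2 BURs and 1 peak in replicate 1 of thymocytes and of brain, without support from replicate 2.

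Of 8 inner root sheath and companion layer keratins, 2 had a peak in both skin replicates (Krt28 and Krt75), 2 in thymocytes and 5 in brain. Of 14 hair shaft keratins, none had a peak in both skin or both thymocyte replicates and 5 had 1 in both brain replicates, below the 46.7% of short genes. Krt40 had 6 BURs and 3 and 3 brain peaks, and Krt33a had 6 BURs and 1 and 3. Krt83 and Krt81 had 3 and 2 BURs and 1 peak in each brain list. Of 6 mucosal and corneal keratins, only Krt12, the corneal type I keratin, had a peak in both replicates of thymocytes, and it is also the one with a site in both brain lists.

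A total of 9 genes had no BUR in their window. They were Krt13 and Krt42 in the type I cluster and Krt86, Krt84, Krt82, Krt72-ps, Krt73, Krt4 and Krt18 in the type II cluster. Of these, Krt13 had a peak in brain replicate 1, Krt42 in thymocyte replicate 1 and Krt18 in both skin lists, and the other 6 had no SATB1 urea peak. The window of Krt73, a keratin of the inner root sheath, held no peak of any of the 11 lists. Krt222 had the most BURs of all, 7, with 1 and 1 thymocyte, 2 and 2 brain and 1 and 1 skin peaks.

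SATB1 occupied few of the 59 BURs in the windows. The share bound was 5.08% in both skin lists, 6.78% and 10.2% in thymocytes, and 23.7% and 22.0% in brain. Over all BURs of chromosomes 1 to 19, X and Y, it was 3.71% and 3.64%, 14.6% and 12.9%, and 37.2% and 34.2%. The keratin share was thus below that of the genome in thymocytes and brain. In skin the keratin share rests on 3 BURs and was close to that of the genome. The order of the cell types gave p = 0.0111 (exact one-sided permutation test, 90 arrangements), again the order of the list sizes, and it turned when the lists were cut to equal size. The 3 BURs bound in both skin replicates were also bound in thymocytes and brain, and the 4 bound in thymocytes were all bound in brain. Of the 11 bound in both brain replicates, 7 were not bound in both replicates of thymocytes or of skin. This sharing between cell types was not counted over all BURs. None of the 17 BURs of the type II windows was bound in skin. With 3.71% and 3.64% of all BURs bound there, 17 are too few to set these windows apart. Of the 59 BURs, 43 were bound in no SATB1 urea list (72.9%, against 59.5% of all BURs).

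The BURs of the keratin windows were less AT-rich than BURs elsewhere (median 64.8% against 70.7%) and had a higher median fold enrichment in vitro (7.71 against 5.88). The 11 bound in both brain replicates had a median AT content of 68.9% and the 43 bound in no list 63.4%. Over all BURs the same medians were 70.7% and 70.6%, without such a gap. The fold enrichment in vitro was 8.08 and 7.71, against 7.21 and 5.29 over all BURs. The longest run without G or C was 32 and 53 bases at the median. BURs bound in skin had a median fold of 13.5 in vitro, over 3 BURs. Of the SATB1 peaks in the windows, 3 of 5 lay on a BUR in each skin list, 4 and 6 of 11 in thymocytes, and 14 of 24 and 13 of 25 in brain, against 78.4% and 79.4%, 75.8% and 77.6%, and 73.0% and 72.8% of the whole lists.

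Standard ChIP-seq gave other SATB1 sites at the keratin genes of thymocytes. It had 16 and 10 peaks in the windows against 11 and 11 by urea ChIP-seq, a difference of −2 peaks on average (exact two-sided permutation test, p = 1, the smallest possible being 0.333). Without standard replicate 1 the difference was 1 in the other direction, and with 50 kb flanks it was −10.5 (exact p = 0.333). No thymocyte urea peak in the windows overlapped a standard peak in either replicate, and over the whole thymocyte urea lists 0.730% to 1.04% did, so none among 11 does not set the keratin windows apart. The standard peaks crowded at the start of the type I cluster, where the stretch of 7 genes from Krt222 to Krt10, flanks included, held 9 of 16 and 7 of 10. Examples were a peak in an exon of Krt222 with a fold enrichment of 13.5 and 5.79, and a peak in an exon near the 3′ end of Krt10 of 10.9 and 7.84. Only 7 keratin genes had a standard peak in both replicates (13.7%, against 64.0% of all genes and 56.8% of short genes), and none had 1 within 2 kb of its start site, against 40.2% of all genes. The antibody and sonication of the standard replicates cannot be told apart.

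CTCF was more frequent at the keratin genes in skin than in thymocytes. Its lists had 42 peaks in the windows in skin and 23 in thymocytes, or 13.3 and 11.3 of 10000 peaks, with 1 list each and no test. All 23 thymocyte peaks overlapped a skin peak, against 83.5% of the whole thymocyte list, and 20 of the 42 skin peaks (47.6%) had no thymocyte peak, close to the 46.5% of the whole skin list. Per Mb the windows held 32.2 peaks in skin and 17.6 in thymocytes, denser than the 12.2 and 7.90 over the genome. By gene, CTCF was found at 39 keratin genes in skin (76.5%, against 72.1% of all genes and 64.8% of short genes). In thymocytes it was found at 22 (43.1%, against 61.6% and 55%), so the share of genes was lower although the density was higher. The 22 genes also had CTCF in skin. The 17 further skin genes were Krt14, Krt5, Krt1, Krt2, Krt6a, Krt71, Krt75, Krt7, Krt18, Krt4, Krt13, Krt76, Krt32, Krt35, Krt36, Krt82 and Krt222, and so came from many roles. At 12 genes neither list had CTCF, among them the basal Krt15 and the stress keratins Krt6b, Krt16 and Krt17. Genes with CTCF in skin alone or in neither list were not counted over all genes. The skin list is also the longer (31509 against 20323 peaks), so these counts set no keratin trait apart.

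Near start sites CTCF was rare. A peak within 2 kb of the start, a limit chosen after the values were seen, was found at 2 keratin genes in skin (3.92%, against 17.3% of all genes) and at none in thymocytes (against 14.1%). These were Krt5, with an intergenic peak 0.644 kb from the start and a fold enrichment of 4.71, and Krt10, with a peak 1.44 kb from the start and 8.91. Neither had a counterpart in the thymocyte list. Of the skin SATB1 peaks, the sites at Krt28 and Krt18 overlapped skin CTCF, 2 of 5 in each replicate, against 12.8% and 12.1% of the whole skin lists. At Krt28 the peaks overlapped only at their ends.

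The other genes of the keratin network, chosen by function, were spread over many chromosomes. Of 28 filament-linking, other intermediate filament and bundling genes, 7 had a SATB1 urea peak in both skin replicates (25.0%), 12 in thymocytes (42.9%) and 14 in brain (50.0%), and 22 had a BUR (78.6%). These lie near the shares of all genes, 18.2%, 40.4%, 58.3% and 86.6%. The keratin shares of 11.8%, 21.6% and 41.2% were lower, but the network genes ran up to 400.4 kb in length, and the difference was not tested. Dst, which anchors keratin filaments at hemidesmosomes and spans 400.4 kb, had 3 and 2 skin peaks and 13 and 9 brain peaks. Itga6, the integrin of the same structure, had 1 peak in every SATB1 urea list, and Evpl, a cornified envelope protein that binds keratins, likewise had 1. Jup and Plec, the desmosomal plakoglobin and the linker plectin, had no skin peak. Vim, the filament of mesenchymal cells, had a single brain peak in replicate 1, and Nefm, a neurofilament gene, had 6 and 4 brain, 2 and 2 thymocyte and 1 and 1 skin peaks. Filaggrin, Flg, which bundles keratin filaments, had 4 and 2 brain peaks and none in thymocytes or skin.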

How the data were processed

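Per the study's methods, the authors aligned reads to NCBI37/mm9 using bowtie2 2.3.1, retained unique matches only, and ran MACS2 2.2.7 on every sample (q-value 0.01). The control given to the peak caller is not given in the sources used here. Unique mapping yields no reads in stretches that neighbouring keratin genes share, and its effect was not tested. For each peak the deposited lists give a fold enrichment (a ratio that the authors did not scale between samples), a −log10 p-value and −log10 q-value, a summit offset, and a display score of the authors' peak caller that was not used. They hold no counts, so counting error could not be estimated. The BUR map and CTCF have 1 list each. Replicate numbers follow the labels, which number the thymocyte urea lists in the reverse order of the paper. SATB1-deficient samples, inputs, Hi-C, 4C-seq and a second wild-type thymocyte CTCF sample, P13 by its title, are not analysed here.

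Peaks were assigned to genes by an overlap of at least 1 bp with the gene body plus 20 kb, with Python 3.11.15 and numpy 2.4.6. Overlaps and exact permutation tests, with a threshold of 0.05, were tested on simulated data. Sequence and genes came from NCBIM37 and GENCODE vM1. Distances run from the centre of a site unless an edge is named. The genes named were Krt5, Krt14, Krt15, Krt1, Krt10, Krt2, Krt8, Krt18, Krt6a, Krt16 and Krt17, those with a skin SATB1 peak in both replicates, the 3 per cluster with most BURs and all with none. The sites named were, in each cluster, those in both skin replicates and the 3 highest in thymocytes and in brain. The genes, lists and tests were chosen with earlier results of these data known. Alternatives were no flank and 50 kb, a −log10 q of at least 5, the summit in place of 1 bp, leaving out any region with a peak in all 11 lists, each cluster alone, SATB1 lists of equal size, each replicate left out and permutation within replicate numbers.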

Additional observations from a re-analysis of the deposited data

How the results depend on the processing

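Of 103 alternative values, 76 were counted as unchanged, which does not mean the same for all. The counts of BURs, CTCF peaks and genes had no test, so they were judged by their size alone. The tests of the share of the list and of urea against standard SATB1 could give no p below 0.0667 and 0.333. Their side of the threshold was thus fixed beforehand, and only their direction could change. For the tests of order, both the direction and the side of the threshold could change. With SATB1 lists of equal size, the excess of brain over skin turned to −4 peaks in the windows (exact p = 1) and −3.39 percentage points of BURs bound (exact p = 1), and the genes with a peak in both replicates fell to 2 in brain and 4 in thymocytes. In the gene bodies alone, the excess of skin over brain as a share of the list was −0.617 per 10000 (exact p = 0.2), the excess in BURs bound was 25 points (exact p = 0.0667), and there were 12 BURs, 6 and 1 CTCF peaks in skin and thymocytes, and 5, 2 and 0 genes with SATB1 in brain, thymocytes and skin. With 50 kb flanks those genes numbered 37, 22 and 17, and urea minus standard SATB1 was −10.5 peaks (exact p = 0.333, the smallest possible). In the type II cluster alone, the excess of brain was 2.5 peaks (exact p = 0.133) and 8.82 points (exact p = 0.0667), with 17 BURs, 22 and 11 CTCF peaks and 6, 1 and 2 genes. In the type I cluster alone, CTCF had 20 and 12 peaks and urea exceeded standard SATB1 by 1 (exact p = 0.667). Leaving out 1 replicate gave an excess of brain of 19 to 20 peaks and 16.9 to 18.6 points, of skin by 2.24 to 2.50 per 10000, and of urea over standard of −5 to 1, the value of 1 without standard replicate 1. With the replicate number as a replicate block, the exact p was 0.0278 for the 19.5 peaks and the 17.8 points, the smallest of 36 arrangements, 0.167 for the 2.37 per 10000 and 1 for the −2 peaks. Differences between replicates did not go together across cell types (r from −0.0165 to 0.00315 over 23572 bins), so these samples share only a number. Without read counts, a missing peak may be a weak one, and the depth that limits it is unknown.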
